A study of Mus musculus with 16 samples.

Results

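The genes described here make, move and export cholesterol. They are 32 named mouse genes, matched by Ensembl identifier to the 32697 genes of the deposited count table, and all 32 were found and passed the filter on low counts that left 16040 genes for testing. They fall into 5 steps: 7 enzymes of the mevalonate steps, 11 enzymes from squalene to cholesterol, 5 genes of the SREBP control system, 5 genes of uptake and transport, and 4 genes of efflux with the LXR receptors. The data are bulk RNA-seq of 16 libraries from tumours of YUMM1.7, a mouse melanoma line, engrafted into female mice and grown to between 200 and 350 mm3. Per the series text, type 1 conventional dendritic cells (cDC1s), which are specialised in cross-presenting antigen, were sorted from them. The genotype labels give 4 groups of 4 libraries: IKKbFF (here Ikbkb controls, with a floxed Ikbkb), IKKbdeltaXCR1 (here Ikbkb-deleted), IRF1FF (Irf1 controls, with a floxed Irf1) and IRF1deltaXCR1 (Irf1-deleted). All mice carried the same engrafted tumour line, and no other treatment is named. The deletions are named after Xcr1, a chemokine receptor gene of cDC1s, so other cells in a library would be outside the named target. The growth notes name only the Ikbkb mice, the sources used here give no ages, and the labels do not say whether each library came from a separate animal, so the tests rest on a spread between libraries that may be technical.

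Cells make cholesterol from acetyl-CoA through mevalonate and squalene. When sterol is scarce in the endoplasmic reticulum, SCAP carries the SREBP transcription factors to the Golgi, where they are cut and released to raise the genes of synthesis and uptake, while INSIG proteins hold SCAP back when sterol is plentiful. Oxidised sterols instead activate the LXR receptors, which raise the exporters ABCA1 and ABCG1. In dendritic cells and macrophages these circuits are known to set membrane composition and to interact with inflammatory signalling.

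Total counts, over genes before filtering, ran from 16478671 to 27433818 per library, and the 32 genes together took 0.225% to 0.325% of them. The cDC1 markers were present in every library but their sum over 12 genes varied from 782 to 8543 CPM (TMM-scaled counts relative to library size). Markers of other cells were abundant: 12 macrophage markers summed to between 2807 and 9468 CPM and 10 fibroblast markers to between 4471 and 30710 CPM. Spp1 alone made 2264 to 7702 CPM of the macrophage sum, and the next highest marker, C1qb, 105 to 1438 CPM. The 2 melanoma markers that could be measured of 6 summed to at most 3.54 CPM. A change in the share of a cell type and a change in RNA per cell cannot be told apart in such libraries. Of the targeted genes, Ikbkb measured 45.1, 44.5, 120.8 and 48.6 CPM in its controls and 46.3, 28.5, 37.1 and 37.8 CPM in the libraries labelled Ikbkb-deleted. Irf1 measured 141, 234, 152 and 268 CPM in its controls and 299, 123, 145 and 98.6 CPM in the libraries labelled Irf1-deleted, so the library labelled Irf1-deleted replicate 1 lay above every control. The sources used here do not give the floxed exons, so reads outside them would not report the deletion. Ikbkb control replicate 3 also stood apart, with the highest mature dendritic cell marker sum (7693 CPM, against a median of 2054 CPM in its group) and the lowest mitochondrial share (0.699%). Its sum of 8 T and NK cell markers was the highest too, at 1159 CPM against a median of 267 CPM in its group.

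Promoter stretches of 4 genes are shown because their products sit at opposite ends of the circuit: Hmgcs1 at the entry to synthesis, Srebf2 and Insig1 in its control, and Abca1 in export. RefSeq promoter windows (GRCm38.p6, 250 bases before to 50 after a start site) were at hand for 26 of the 32 genes, in 35 windows. Each stretch runs 5′ to 3′ on the gene's strand, upstream of the RefSeq start site. Capitals mark matches, on either strand, to TCACNCCA, a form of the sterol regulatory element bound by SREBPs, and to CCAAT, the box bound by NF-Y (ATTGG when read from the other strand). Both motifs contain CCA and so could share bases, which none of the marked matches do.
Hmgcs1 promoter, chr13:119690151-119690350, plus strand: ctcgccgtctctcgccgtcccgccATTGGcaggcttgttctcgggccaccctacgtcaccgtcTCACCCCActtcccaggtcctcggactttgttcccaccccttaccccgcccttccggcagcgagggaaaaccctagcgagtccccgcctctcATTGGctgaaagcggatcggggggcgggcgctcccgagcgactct
Srebf2 promoter, chr15:82147019-82147180, plus strand: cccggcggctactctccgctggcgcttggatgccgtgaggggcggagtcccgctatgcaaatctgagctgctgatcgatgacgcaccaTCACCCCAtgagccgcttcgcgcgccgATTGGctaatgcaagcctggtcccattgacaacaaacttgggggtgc
Insig1 promoter, chr5:28071163-28071362, plus strand: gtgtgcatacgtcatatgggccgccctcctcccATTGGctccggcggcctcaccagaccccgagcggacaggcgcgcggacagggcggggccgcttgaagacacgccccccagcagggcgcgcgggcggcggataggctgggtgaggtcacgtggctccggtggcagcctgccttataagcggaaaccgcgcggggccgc
Abca1 promoter, chr4:53159896-53160095, minus strand: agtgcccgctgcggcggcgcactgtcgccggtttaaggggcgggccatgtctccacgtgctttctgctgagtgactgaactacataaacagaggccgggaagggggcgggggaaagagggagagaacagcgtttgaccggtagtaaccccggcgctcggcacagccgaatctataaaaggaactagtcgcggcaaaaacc
The Hmgcs1 and Srebf2 stretches each hold TCACCCCA, Insig1 holds the CCAAT box alone, and the Abca1 stretch holds neither string. Over all windows, TCACNCCA was in 3 of 35 windows of these genes (8.57%, at Hmgcs1, Srebf2 and Msmo1) and in 3.67% of 32851 RefSeq windows. CCAAT was in 14 of 18 windows of synthesis enzymes (77.8%), in 8 of 17 windows of the other genes (47.1%) and in 33.8% of all windows. These are matches of letters, not sites shown to be bound.

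Per kilobase of exon, the most abundant of the 32 transcripts was Npc2, a lysosomal cholesterol carrier, at 122 ± 29.6 CPM per kb (SD, n = 16 libraries). Srebf2, the SREBP that governs cholesterol synthesis, followed at 41.8 ± 15.02 CPM per kb, then the sterol isomerase gene Ebp at 37.1 ± 7.88 and the lanosterol demethylase gene Cyp51 at 34.3 ± 16.02 CPM per kb. These last 3 lay within an SD of each other, while the lowest Npc2 library (79.3 CPM per kb) was above the highest library of each of them (74.8, 50.6 and 62.7 CPM per kb). At the other end stood Npc1, the lysosomal membrane partner of Npc2, at 2.49 ± 0.961, the farnesyl diphosphate synthase gene Fdps at 2.39 ± 1.01, the sterol reductase gene Tm7sf2 at 2.23 ± 1.15 and the isopentenyl diphosphate isomerase gene Idi1 at 0.945 ± 0.439 CPM per kb. Lengths are the union of all annotated exons of a gene, so they can exceed that of the transcript present and lower its rank. The spread between libraries also differed. Soat1, which esterifies cholesterol for storage, varied least, by 1.73-fold between its lowest and highest library, and Tm7sf2 most, by 9.20-fold. Some counts could hold reads of a neighbour, because the strand setting of the counting was not given in the sources used here. Exons are shared with Ctsb by Fdft1 (774 bases), with Vps51 by Tm7sf2 (532), with Rmc1 by Npc1 (511), with Akap9 by Cyp51 (166) and with Rai1 by Srebf1 (109). Hmgcs1, Idi1, Scap and Nr1h3 share exon bases with noncoding genes.

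**Figure D1:**
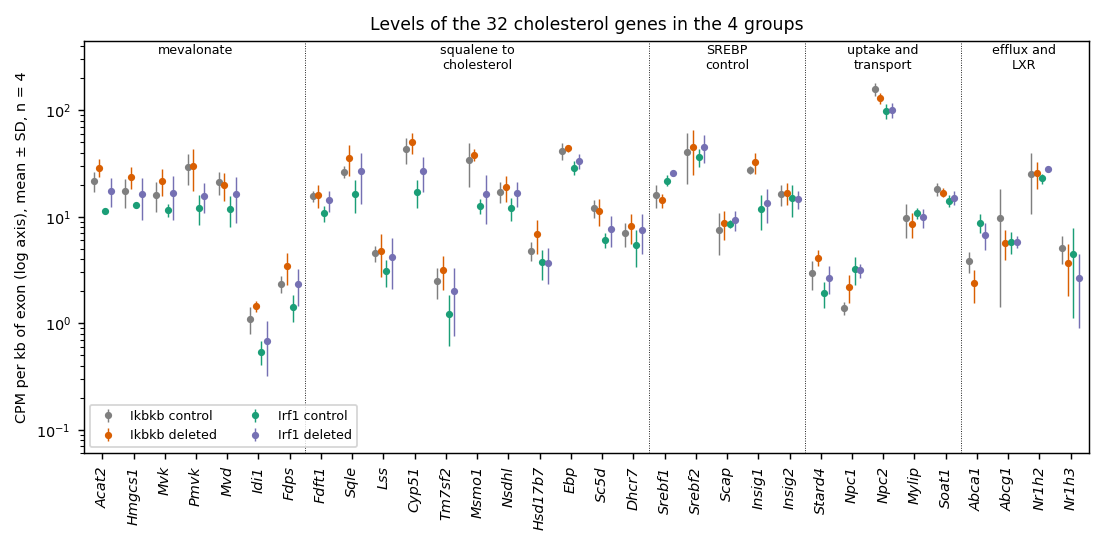
Mean CPM per kb of exon (log axis) of each of the 32 genes in the 4 groups of 4 libraries, with SD as bars and dotted lines between the steps. Npc2 stands highest, at 122 CPM per kb over all libraries, and Idi1 lowest, at 0.945 CPM per kb.

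The first question was how the genes differ without Ikbkb, the gene of the NF-kB kinase IKK-beta, or without Irf1, the gene of an interferon-induced transcription factor. Neither deletion gave a call at a Benjamini-Hochberg adjusted p under 0.05 in edgeR's quasi-likelihood test, for these genes or for any of the 16040 (0% called in each). DESeq2 and limma voom also called none of the 32. Of all genes, DESeq2 called 0.237% in the Ikbkb and 0.0374% in the Irf1 deletion, and limma voom 0% in each. At an unadjusted p under 0.05, 1 of the 32 was higher and 1 lower in the Ikbkb-deleted libraries (1.85% and 2.94% of all genes), and 2 were higher and 0 lower in the Irf1-deleted libraries (1.4% and 1.22% of all genes). The fold changes of the synthesis enzymes were mostly above 0: 16 of 18 in the Ikbkb set, with a median log2 fold change of 0.23, and 17 of 18 in the Irf1 set, with a median of 0.46. The median over all genes was -0.02 in both. Both fold changes were above 0 for 15 of the 18 enzymes (83.3%) and for 26.5% of all genes. The enzymes are not independent of each other, as their pairwise correlations show, so these counts are descriptions.

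Among the mevalonate enzymes, Acat2, whose product joins acetyl-CoA units at the entry to the pathway (ENSMUSG00000023832, on the minus strand of mm10 chromosome 17 from 12942890 to 12960747), had the clearest separation. It measured 31.02, 28.3, 29.3 and 27.4 CPM among Irf1 controls and 52.6, 33.5, 33.03 and 60.1 CPM among Irf1-deleted libraries. The lowest of the deleted libraries lay above the highest control, a separation in this direction that 1.26% of all genes showed. The log2 fold change was 0.63 (SE 0.22), with a 95% interval of 0.15 to 1.10 and an adjusted p of 1 (unadjusted p = 0.0131), and it was 0.54 once the library labelled Irf1-deleted replicate 1 was left out. In the Ikbkb set Acat2 measured 63.7, 48.3, 43.04 and 66 CPM in the controls and 70.7, 92.5, 58.1 and 73.6 CPM in the deleted libraries. These groups overlapped, and the log2 fold change was 0.42 (SE 0.22). Acat3, a near copy of Acat2, averaged 0.285 and 0.399 CPM in the Ikbkb and Irf1 controls. Hmgcs1 encodes the enzyme that makes HMG-CoA. It measured 101, 62.99, 99.9 and 55.04 CPM among Ikbkb controls and 139.7, 89.6, 88.4 and 118 CPM among Ikbkb-deleted libraries, for a log2 fold change of 0.45 (SE 0.28) with overlapping groups. The Irf1 controls lay close together at 60.1, 54.9, 59.2 and 61.3 CPM, and the Irf1-deleted libraries spread to both sides of them at 120.0, 44.8, 60.7 and 73.5 CPM. Mvk, the gene of mevalonate kinase, measured 29.9, 27.1, 36.97 and 30 CPM among Irf1 controls and 40.6, 32.9, 32.05 and 74.7 CPM among Irf1-deleted libraries, of which replicate 4 was the highest. Its log2 fold change was 0.54 (SE 0.31), and 0.18 without that library. In the Ikbkb set it was 0.44 (SE 0.31), and 0.24 without control replicate 3. Fdps, which makes the branch point intermediate farnesyl diphosphate, measured 4.95, 7.05, 7.80 and 4.21 CPM among Irf1 controls and 12.1, 6.22, 7.11 and 13.97 CPM among Irf1-deleted libraries. Replicates 1 and 4 of the deleted libraries were high and the others lay within the controls, for a log2 fold change of 0.71 (SE 0.36). The remaining mevalonate genes Pmvk, Mvd and Idi1 had fold changes between -0.10 and 0.46 in the 2 deletions.

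Of the 11 enzymes from squalene to cholesterol, 10 had a fold change above 0 in each deletion. Sqle encodes squalene monooxygenase, a rate-limiting oxygen-dependent step. It measured 100.3, 94.6, 122 and 48.5 CPM among Irf1 controls and 188, 65.6, 108 and 229 CPM among Irf1-deleted libraries. Again replicates 1 and 4 were above every control and the others were not, and the log2 fold change was 0.69 (SE 0.36), with an interval of -0.07 to 1.45. It was 0.40 without replicate 4. In the Ikbkb set Sqle measured 166, 125, 136 and 162 CPM in the controls and 250.4, 254, 122 and 166 CPM in the deleted libraries, and its log2 fold change was 0.43 (SE 0.36). Cyp51 (ENSMUSG00000001467, on the minus strand of mm10 chromosome 5 from 4081145 to 4104746) measured 103, 66.9, 82.4 and 50.6 CPM among Irf1 controls and 147, 60.9, 109.9 and 156 CPM among Irf1-deleted libraries. Its log2 fold change of 0.64 (SE 0.30) had an unadjusted p of 0.0451 and an adjusted p of 1, and the groups overlapped through deleted replicate 2. Fdft1, the gene of squalene synthase, had a log2 fold change of 0.40 (SE 0.21) in the Irf1 set and 0.03 (SE 0.21) in the Ikbkb set. The fold changes below 0 were those of the 3-ketosteroid reductase gene Hsd17b7 in the Irf1 set (-0.01) and of the sterol desaturase gene Sc5d in the Ikbkb set (-0.09), both within their SE of 0. With the library labelled Irf1-deleted replicate 1 left out, the median over all 32 genes in the Irf1 set went from 0.34 to 0.20, and without replicate 4 to 0.19.

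The SREBP control genes had no call in either deletion, with log2 fold changes between -0.15 (Srebf1 in the Ikbkb set) and 0.32 (Srebf2 in the Irf1 set). Srebf2 (ENSMUSG00000022463, on the plus strand of mm10 chromosome 15 from 82147181 to 82205379) measured 261, 159, 498 and 247 CPM among Ikbkb controls and 538, 268, 204 and 286 CPM among Ikbkb-deleted libraries. Control replicate 3 and deleted replicate 1 stood well above the rest of their groups, and the groups overlapped. Insig1, itself a target of SREBPs, had log2 fold changes of 0.24 (SE 0.30) and 0.21 (SE 0.30).

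In uptake and transport, Npc1 measured 14.8, 17.6, 17.5 and 13.3 CPM among Ikbkb controls and 27.1, 15.3, 32.3 and 24.02 CPM among Ikbkb-deleted libraries. Deleted replicate 2 lay within the controls and the other deleted libraries above them. The log2 fold change was 0.65 (SE 0.26), with an interval of 0.10 to 1.19, an unadjusted p of 0.0232 and an adjusted p of 0.988. In the Irf1 set it was -0.05 (SE 0.25). Its overlapping neighbour Rmc1 had a log2 fold change of 0.16 (SE 0.24) in the Ikbkb set. Npc2 measured 746, 820.2, 1015 and 861 CPM among Ikbkb controls and 618, 819.7, 709 and 684 CPM among Ikbkb-deleted libraries, for a log2 fold change of -0.28 (SE 0.16). Stard4, a soluble sterol carrier, had similar values in both deletions, 0.49 (SE 0.30) and 0.46 (SE 0.30), which went to 0.27 without Ikbkb control replicate 2 and to 0.30 without Irf1-deleted replicate 1. Mylip, the ubiquitin ligase that degrades lipoprotein receptors, and Soat1 had fold changes within their SE of 0 in both.

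The 4 efflux and LXR genes had median log2 fold changes of -0.58 in the Ikbkb set and -0.18 in the Irf1 set. Abca1 (ENSMUSG00000015243, on the minus strand of mm10 chromosome 4 from 53030787 to 53159895) measured 35.9, 34.6, 34.95 and 53.5 CPM among Ikbkb controls and 17.1, 18.2, 34.8 and 28.4 CPM among Ikbkb-deleted libraries. Deleted replicate 3 reached the controls and the other deleted libraries lay below them. The log2 fold change was -0.69 (SE 0.27), with an interval of -1.26 to -0.11, an unadjusted p of 0.022 and an adjusted p of 0.988. In the Irf1 set Abca1 measured 81.9, 95.9, 71.2 and 114 CPM in the controls and 48.8, 86.5, 88.6 and 57.4 CPM in the deleted libraries, and its log2 fold change was -0.37 (SE 0.27), or -0.23 without the first of these deleted libraries. Abcg1, which exports cholesterol to mature lipoproteins, measured 40.9, 36.3, 164 and 46.2 CPM among Ikbkb controls and 53.3, 42.5, 47.5 and 23.6 CPM among Ikbkb-deleted libraries. Its log2 fold change of -0.78 (SE 0.41) rested on control replicate 3, without which it was 0.02, and in the Irf1 set it was 0.00 (SE 0.41). The LXR genes Nr1h2 and Nr1h3 had log2 fold changes of 0.01 (SE 0.29) and -0.48 (SE 0.59) in the Ikbkb set and of 0.30 (SE 0.30) and -0.75 (SE 0.59) in the Irf1 set.

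**Figure D2:**
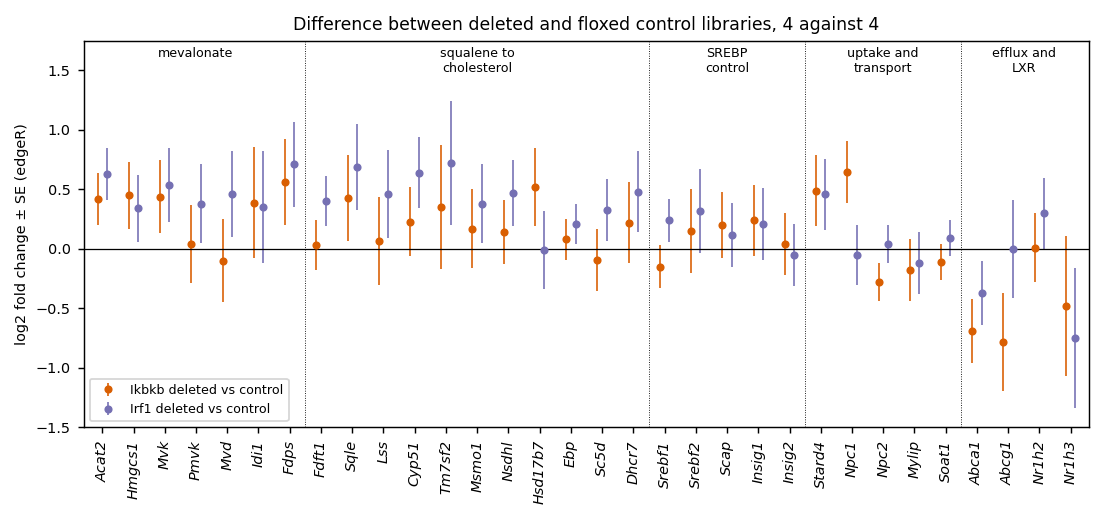
Log2 fold change with SE (edgeR) of each gene between deleted and control libraries, 4 against 4, in the Ikbkb set (orange) and the Irf1 set (purple). Most synthesis enzymes lie above 0, with medians of 0.23 and 0.46, Abca1 lies below 0 in both sets, and no gene passed the adjusted threshold.

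When both deletions were averaged, all 18 synthesis enzymes had a fold change above 0, with a median of 0.33, and again none of the 32 and none of all genes was called (0%; at an unadjusted p under 0.05, 5 of the 32 were higher and 1 lower, against 1.98% and 3.27% of all genes). The smallest p among the 32 was that of Acat2, with a log2 fold change of 0.52 (SE 0.16), an unadjusted p of 0.00465 and an adjusted p of 0.942. Abca1 followed at -0.53 (SE 0.19), then Fdps at 0.64 (SE 0.25), Mvk at 0.49 (SE 0.22) (0.31 without Irf1-deleted replicate 4), Stard4 at 0.48 (SE 0.21) and Sqle at 0.56 (SE 0.25). The difference between both deletions was also without a call (0%; 2.84% of all genes and none of the 32 at an unadjusted p under 0.05). Its smallest p was for Npc1, whose log2 fold change in the Irf1 set minus that in the Ikbkb set was -0.69 (SE 0.36), with an interval of -1.46 to 0.07 and an adjusted p of 1. The differences for Srebf1, Npc2, Fdft1 and Sc5d were 0.40, 0.32, 0.37 and 0.42. That for Sc5d was 0.26 when replicate 1 of those labelled Irf1-deleted was omitted, and that for Npc2 was 0.21 when replicate 2 was. The difference for Abcg1 was 0.78, and -0.01 without Ikbkb control replicate 3. Related genes outside the 32 gave no call either. Over 7 lists, the smallest p belonged to the oxysterol-binding protein gene Osbp in the Ikbkb set (log2 fold change 0.74, SE 0.27, adjusted p = 0.973), to the HDL receptor gene Scarb1 in the Irf1 set (0.76, SE 0.24, adjusted p = 1), to the sterol transfer gene Gramd1a in the average (-0.61, SE 0.18, adjusted p = 0.942) and to the desaturase gene Scd1 in the difference (0.90, SE 0.42, adjusted p = 1). Of 11 fatty acid synthesis genes, the other SREBP-driven lipid pathway, 8 and 9 had a fold change above 0 in the Ikbkb and Irf1 sets, with medians of 0.14 and 0.15.

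A larger contrast lay between the control groups of the 2 sets. Of the 32 genes, 9 were called (28.1%, against 12.6% of all genes): 7 were lower (5.84% of all genes) and 2 higher (6.74%) in the Irf1 controls than in the Ikbkb controls. All 18 synthesis enzymes had a fold change below 0, with a median of -0.70, where all genes had a median of -0.01. Groups did not overlap for 12 genes lower and 2 higher in the Irf1 controls, a separation shown by 7.16% and 10.3% of all genes. The set was not the only thing that differed between these libraries. The fibroblast marker sum was 6866 ± 136 CPM among Ikbkb controls and 20900 ± 8516 CPM in the Irf1 controls, and the mature dendritic cell sum 3342 ± 2928 and 1108 ± 306 CPM. The set, its genotype and these cell amounts cannot be told apart, and with the cDC1 and fibroblast scores as covariates 0 of the 32 were called, against 0.00623% of all genes (1 gene). In that fit the log2 fold changes of Npc1, Abca1, Insig1 and Cyp51 were 1.35 (SE 0.53), 1.26 (SE 0.50), -1.58 (SE 0.67) and -1.16 (SE 0.69), where the SEs without covariates were 0.26, 0.27, 0.31 and 0.30. Those of Npc2, Pmvk, Sc5d, Acat2 and Msmo1 were -0.56 (SE 0.32), -0.89 (SE 0.42), -0.63 (SE 0.56), -0.45 (SE 0.47) and -0.34 (SE 0.68). Their SEs without covariates were 0.16, 0.34, 0.26, 0.22 and 0.33, in the same order.

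The 5 called enzymes lie at the beginning and toward the end of the pathway. Acat2 fell from 55.2 ± 11.3 to 29.03 ± 1.54 CPM (SD, n = 4), a log2 fold change of -0.93 (SE 0.22) with an adjusted p of 0.0172. Pmvk, the gene of phosphomevalonate kinase, measured 45.9, 38.4, 74.5 and 42.6 CPM among Ikbkb controls and 15.5, 25.8, 15.03 and 26.9 CPM in the Irf1 controls (-1.28, SE 0.34, adjusted p = 0.0244). Cyp51 was at 256, 182, 131 and 189.8 CPM in the Ikbkb controls, every library above the Irf1 controls given earlier, and its log2 fold change was -1.32 (SE 0.30, adjusted p = 0.0133). The antisense neighbour of Cyp51, Akap9, had the opposite sign (1.07, SE 0.37, adjusted p = 0.0709). Msmo1, which removes methyl groups from the sterol ring, measured 325, 161, 114 and 238 CPM among Ikbkb controls and 90.4, 67.6, 85.7 and 67.5 CPM in the Irf1 controls. Its log2 fold change of -1.43 (SE 0.33) was the lowest of the 32 (adjusted p = 0.0154). Sc5d measured 73.3, 50.97, 47.9 and 63.4 CPM among Ikbkb controls and 37, 27.8, 26.1 and 27.6 CPM in the Irf1 controls (-0.99, SE 0.26, adjusted p = 0.0239).

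Insig1 (ENSMUSG00000045294, on the plus strand of mm10 chromosome 5 from 28071363 to 28078662) fell along with them. It measured 78.7, 86.1, 94.5 and 80.9 CPM among Ikbkb controls and 41.5, 36, 49.1 and 18.7 CPM in the Irf1 controls, a log2 fold change of -1.23 (SE 0.31, adjusted p = 0.0197). Srebf2 did not pass the test and had a log2 fold change of -0.16 (SE 0.35), with an interval of -0.89 to 0.58. The lysosomal partners were called in opposite directions. Npc2 measured 535, 431, 530.5 and 643 CPM in the Irf1 controls, all below the Ikbkb controls (-0.69, SE 0.16, adjusted p = 0.0165). Npc1 measured 30.1, 25.8, 40.6 and 50.3 CPM in the Irf1 controls, all above the Ikbkb controls (1.22, SE 0.26, adjusted p = 0.0102), while its overlapping neighbour Rmc1 had a log2 fold change of -0.38 (SE 0.24, adjusted p = 0.316). Abca1 was the other gene that rose, from 39.7 ± 9.18 to 90.7 ± 18.4 CPM, with no overlap between the groups (1.19, SE 0.27, adjusted p = 0.0139). Leaving out 1 library gave 4 calls without Irf1 control replicate 2 (5.09% of all genes) and up to 10 without Irf1 control replicate 4 (14.5%), and the sign of each of the 9 called genes held throughout. Without Irf1 control replicate 2, Acat2, Msmo1, Sc5d, Insig1 and Npc2 lost their calls. Sc5d also lost its call without Ikbkb control replicates 1 or 4 or Irf1 control replicate 3, and Acat2 without Irf1 control replicate 3. Pmvk lost its call without Ikbkb control replicate 3 and without Irf1 control replicates 1 or 3. Over these omissions the largest adjusted p was 0.0753 for Sc5d and 0.0816 for Pmvk.

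**Figure D3:**
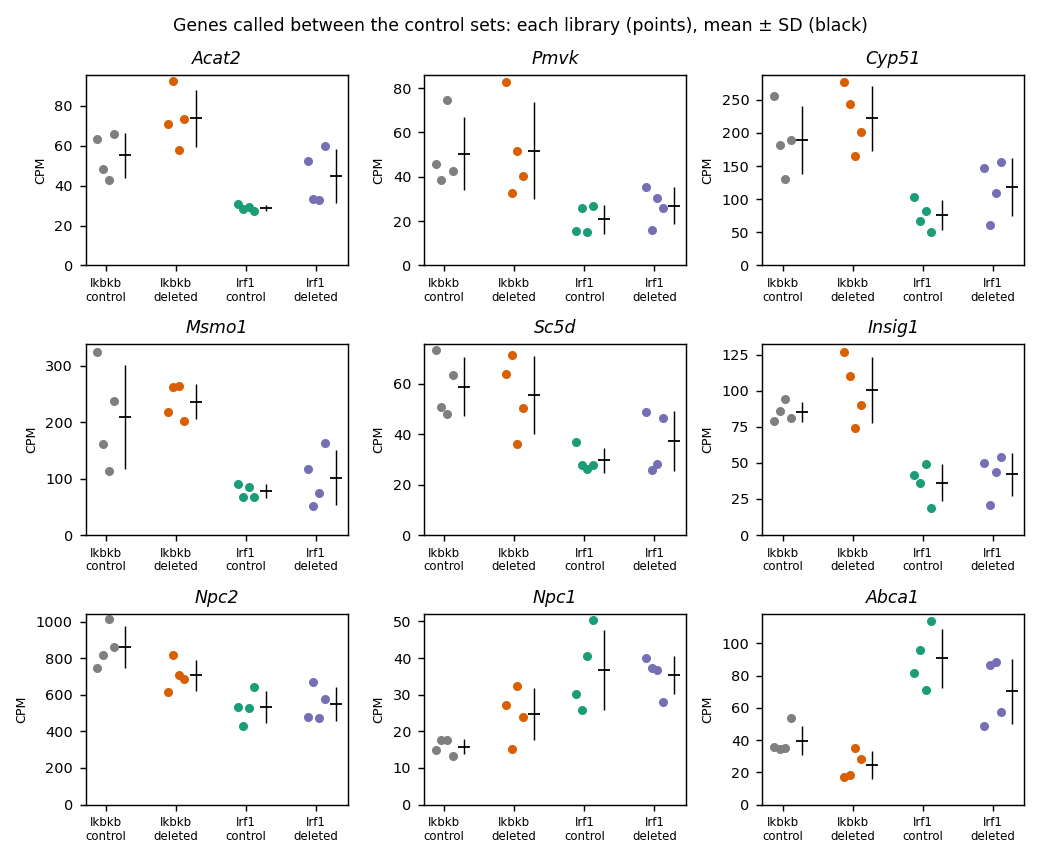
CPM in each of the 16 libraries (points) for the 9 genes called between the control groups, with mean and SD in black, on axes that start at 0. The Irf1 controls lie wholly below the Ikbkb controls for the first 7 genes and wholly above them for Npc1 and Abca1.

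The deleted libraries of the 2 sets give a contrast of the same sets in other libraries, which also carry the deletions. There 4 of the 32 were called (12.5%, against 8.58% of all genes). Abca1 was higher in the Irf1-deleted than in the Ikbkb-deleted libraries, with a log2 fold change of 1.51 (SE 0.27, adjusted p = 0.00985), as was Srebf1 at 0.86 (SE 0.18, adjusted p = 0.0144). Insig1 and Msmo1 were lower, with log2 fold changes of -1.26 (SE 0.31, adjusted p = 0.0234) and -1.22 (SE 0.33, adjusted p = 0.0363). Srebf1, the SREBP linked more to fatty acid synthesis, measured 81.05, 73.3, 70.3 and 98.2 CPM in the Ikbkb-deleted and 136, 157, 144 and 148 CPM among Irf1-deleted libraries, without overlap. Rai1, whose exons overlap those of Srebf1, had the same sign, with a log2 fold change of 1.30 (SE 0.55, adjusted p = 0.156) between the deleted groups and 1.72 (SE 0.56, adjusted p = 0.0564) between the controls. All 9 genes called between the controls had the same sign here and 3 were called again. How many of all genes called between the controls did the same was not counted, so these counts are descriptions. All 18 synthesis enzymes were again below 0, with a median of -0.55, but 15 were without Ikbkb-deleted replicate 1 and 16 without Irf1-deleted replicate 2. With each of the 8 deleted libraries left out in turn, Abca1 was called 8 times, Srebf1 7, Insig1 4 and Msmo1 2 times. The number of calls was 2 without Ikbkb-deleted replicate 1, Ikbkb-deleted replicate 2 or Irf1-deleted replicate 2 (5.36%, 2.74% and 2.78% of all genes). It was 1 without Irf1-deleted replicate 3 (0.659% of all genes). It was 3 when replicate 1 of those labelled Irf1-deleted was the one omitted (3.94% of all genes). The fibroblast sums differed here too, at 5882 ± 2262 and 15920 ± 4647 CPM. Among related genes, the control groups differed for Fasn, the fatty acid synthase gene (log2 fold change 0.84, adjusted p = 0.0384), the endocytic receptor gene Lrp1 (1.83, adjusted p = 0.0173), Osbp (1.14, adjusted p = 0.0165), Gramd1a (0.92, adjusted p = 0.0328) and the ubiquitin ligase gene Rnf139 (-0.70, adjusted p = 0.0156). These were 1 of 11 genes of fatty acid synthesis, 1 of 7 lipoprotein and scavenger receptors, 2 of 8 of sterol transport and ester hydrolysis, and 1 of 7 of SREBP processing and turnover. None of 4 isoprenoid branch genes, 3 oxysterol enzymes or 5 other LXR targets and partners was called. These shares stand against the 12.6% of all genes called between the controls. Over the 11 fatty acid genes 6 had a fold change above 0 between the controls, with a median of 0.01. Between the deleted groups, Lrp1 was called again (1.62, SE 0.44, adjusted p = 0.0357), as was the fatty acid synthesis gene Acaca (1.56, SE 0.43, adjusted p = 0.0378), not called between the controls. These were 1 of 7 lipoprotein and scavenger receptors and 1 of 11 fatty acid genes, where 8.58% of all genes were called. Fasn, Osbp, Gramd1a and Rnf139 were not called there.

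Because cell content varied, each gene was also fitted against marker scores (mean log2 CPM of a marker list) with the group means kept in the fit. A slope is the log2 change of a gene per unit of score. Against the cDC1 score, 3 of the 32 had a called slope (9.38%, against 7.48% of all genes), all positive (5.85% of all genes): Pmvk at 0.37 (SE 0.07, adjusted p = 0.00573), Srebf2 at 0.37 (SE 0.08, adjusted p = 0.00648) and Abcg1 at 0.42 (SE 0.10, adjusted p = 0.0138). Against the score of mature dendritic cells, the Ccr7-expressing state, 4 were called (12.5%, against 9.99% of all genes), also all positive (7.13%). These were Abcg1 at 0.75 (SE 0.14, adjusted p = 0.00307), Srebf2 at 0.64 (SE 0.12, adjusted p = 0.00358), Pmvk at 0.59 (SE 0.14, adjusted p = 0.0123) and Nr1h2, the gene of LXR-beta, at 0.47 (SE 0.13, adjusted p = 0.0273). Both scores moved together, with a correlation of 0.97 over the 16 libraries after removing group means, so their slopes are not separate results. The T and NK score correlated with the mature score at 0.57, and slopes on it were not tested. Ikbkb control replicate 3 weighed heavily: it had 164 CPM of Abcg1 and 157 CPM of Nr1h2, where the other Ikbkb controls had at most 46.2 and 68.8 CPM. Without it 1 slope was called on the cDC1 score (2.53% of all genes), where Abcg1 went to 0.21. On the mature score 0 were called (2.59% of all genes). There the slopes were 0.41 for Abcg1 (adjusted p = 0.373), 0.65 for Srebf2 (0.0771), 0.73 for Pmvk (0.0648) and 0.18 for Nr1h2 (0.745). Without Ikbkb-deleted replicate 1, 1 and 2 slopes were called on the cDC1 and mature scores (3.96% and 6.02% of all genes). Within the Ikbkb set alone 3 slopes were called on each score (8.55% of all genes on the cDC1 and 10% on the mature score), and within the Irf1 set alone 0 on each (0.311% and 0.501%). There the mature score slopes were 0.50 for Srebf2, 0.85 for Pmvk and 0.42 for Abcg1, and that of Nr1h2 was -0.14.

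**Figure D4:**
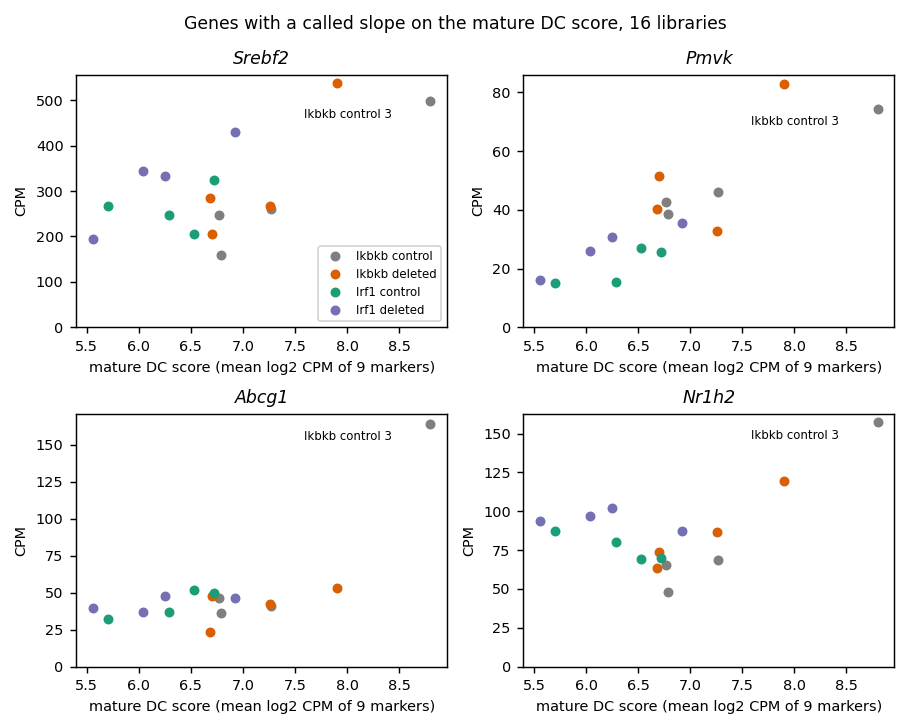
CPM of Srebf2, Pmvk, Abcg1 and Nr1h2 against the mature dendritic cell score in the 16 libraries, coloured by group, on vertical axes that start at 0. Ikbkb control replicate 3 has the highest score, 8.80, and the highest Abcg1 and Nr1h2 values, 164 and 157 CPM.

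Of the related genes, 6 had a called slope on the mature score (9.99% of all genes had), all positive (7.13%). These were 2 of 7 lipoprotein and scavenger receptors, 1 of 3 oxysterol enzymes and 1 of 7 genes of SREBP processing and turnover. The rest were 1 of 11 of fatty acid synthesis and 1 of 5 other LXR targets and partners. None of 8 genes of sterol transport and ester hydrolysis or 4 isoprenoid branch genes was called. Cd36, a fatty acid and lipoprotein scavenger receptor gene, was at 1.82 (SE 0.20, adjusted p = 2.75e-05) and Cyp27a1, which makes an oxysterol, at 1.48 (SE 0.27, adjusted p = 0.00243). The others were the lipoprotein receptor gene Lrp8 (0.96, adjusted p = 0.0207), Erlin1, which takes part in the turnover of sterol regulators (0.66, adjusted p = 0.0139), the fatty acid elongase gene Elovl5 (0.46, adjusted p = 0.0456) and Rxrb, the gene of an LXR partner (0.43, adjusted p = 0.0357). All but Rxrb were also called on the cDC1 score (7.48% of all genes were), led by Cd36 (1.08, adjusted p = 6.27e-05). On the macrophage score 0 of the 32 were called in edgeR (0.362% of all genes were), with 2 positive and 7 negative slopes at an unadjusted p under 0.05 (4.36% and 5.72% of all genes). There 16 of 18 synthesis enzymes had a negative slope, with a median of -0.20, led by Dhcr7, the gene of the last enzyme of 1 branch, at -0.49 (SE 0.12, adjusted p = 0.151). Nr1h3, the gene of LXR-alpha, had the highest slope, 0.82 (SE 0.21, adjusted p = 0.191). The scavenger receptor gene Msr1 was called there (0.95, SE 0.09, adjusted p = 4.21e-05). On the fibroblast score 0 of the 32 were called (0.0312% of all genes), with 0 positive and 1 negative slope at an unadjusted p under 0.05 (5.01% and 4.38% of all genes), and 27 of 32 slopes were negative. On the cell cycle score 0 were called (0% of all genes), with 2 positive and 5 negative slopes at an unadjusted p under 0.05 (6.42% and 9.16% of all genes). Abcg1 was at -1.89 (SE 0.47, adjusted p = 0.103) and Nsdhl, a sterol dehydrogenase gene, at 1.24 (SE 0.38, adjusted p = 0.145). The Abcg1 slope rested on Ikbkb control replicate 3, without which it was -0.40.

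Within groups, the synthesis enzymes varied together from library to library. After removing group means, the 153 pairs among the 18 enzymes had a median Pearson correlation of 0.53 (Spearman 0.48) over 16 libraries, and 144 pairs were positive. The median with all genes was -0.01, and that of the 91 pairs among the other 14 genes was 0.01. The median was 0.36 in the 8 libraries of the Ikbkb set and 0.67 in the 8 of the Irf1 set. All pairs share their libraries and scaling, so these values are descriptions. Sqle had the highest median with the other enzymes, 0.71, and its highest single value was with Insig1, the SREBP target and brake (Pearson 0.91, Spearman 0.86). Soat1, of the storage step, also varied with the enzymes (median 0.54). Pmvk and Ebp varied little with the others, with medians of 0.12 and 0.15. Abca1 ran opposite, with a median of -0.51 against the enzymes, -0.76 with Sqle (Spearman -0.77) and -0.82 with Soat1 (Spearman -0.78). Srebf2 varied with the enzymes at a median of 0.39 and Srebf1 at -0.16. The pattern is visible in single libraries: the mean log2 CPM of the 18 enzymes in the Irf1-deleted libraries was 5.49, 4.38, 4.91 and 5.63, so replicates 1 and 4 were high for the pathway as a whole.

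**Figure D5:**
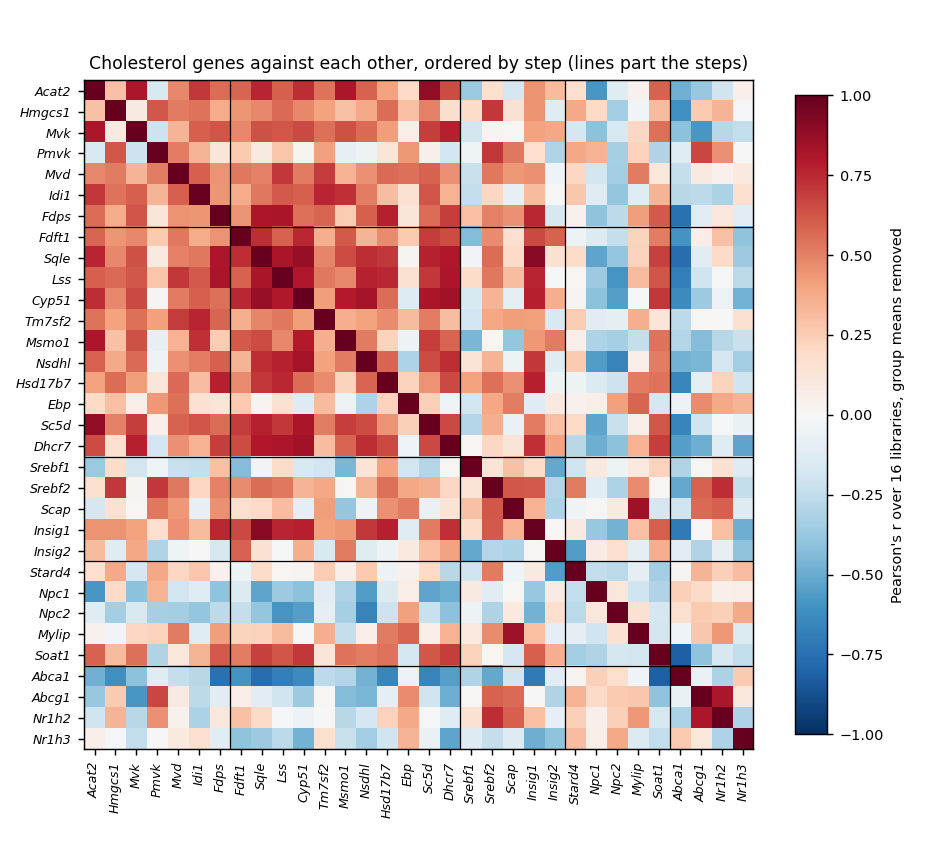
Pearson correlation over 16 libraries, group means removed, between each pair of the 32 genes, ordered by step with lines between steps (red positive, blue negative). The block of 18 synthesis enzymes at the upper left is mostly red, with a median of 0.53, and the Abca1 row is blue against it, with a median of -0.51.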

How the data were processed

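The deposited table holds raw, unnormalized read counts for each Ensembl gene, as the authors made it. The submitters' processing notes list STAR 2.5.3a and HTSeq 0.6.1p1, after bcl2fastq 2.17.1.14 and cutadapt 1.10, and name mm10; neither the annotation release nor the counting strand was given in the sources used here. The labels' protocols describe SMART-Seq v4 on 1000 pg RNA, amplified for 12 PCR cycles. Such reads carry no molecular identifiers, so depth alone understates error.

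Identifiers were matched to GENCODE M21 (32684 of 32697), the source of coordinates and exon lengths. Genes were filtered with filterByExpr (minimum count 10), scaled by TMM and fitted with edgeR 4.0.16 (R 4.3.3) quasi-likelihood tests over all 16 libraries, with a mean per group. P-values were adjusted by Benjamini-Hochberg over 16040 genes and called under 0.05. Log2 CPM used a prior count of 2. The code was tested on simulated data. Replicate numbers follow record order and pair nothing. Replicates of a group differed by more than counting noise (chi-square per gene at least 44.9 in all 24 pairs).

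For the deletion contrasts and the control groups the text names up to 8 called genes by p, or, with under 6 called, the 6 with the smallest p. For the slopes and the deleted groups it names the called genes of the main fit. On the macrophage and cell cycle scores, with none called, it gives some of the 6 with the smallest p, and on the fibroblast score none. Of related lists it names up to 3 called genes per list. In the deletion contrasts, with none called there, it gives the 1 with the smallest p over all lists. Pmvk between the control groups lies outside the limit of 8 and was named after its value was seen, as were genes named for their step or overlap. Alternatives were RLE and upper-quartile scaling, other filters, DESeq2 1.42.0, limma 3.58.1 voom with quality weights, marker scores as covariates, each set alone, and leaving out each library. The comparison of deleted libraries, its fits without 1 library, and the slopes within each set were added after seeing the data. The members and lists were chosen with earlier results of these data known.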

Additional observations from a re-analysis of the deposited data

Results flagged for a closer look

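In each group of 4 libraries the highest and lowest value of each gene was checked for a gap to the nearest other library that, as a share of the group's range, passed Dixon's critical value for 4 values. Of 128 groups tested, 5 held such a library, and chance alone flags about 1 in 20 groups. Nsdhl measured 28.7 CPM in replicate 2 of those labelled Irf1-deleted, where the others lay between 53.1 and 54.4 CPM. Sc5d measured 37.0 CPM in Irf1 control replicate 1, with the others between 26.1 and 27.8 CPM. Stard4 measured 8.98 CPM in Ikbkb control replicate 2, with the others between 17.9 and 19.6 CPM. Abca1 measured 53.5 CPM in Ikbkb control replicate 4, with the others between 34.6 and 35.9 CPM. Abcg1 measured 164 CPM in Ikbkb control replicate 3, with the others between 36.3 and 46.2 CPM.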

How the results depend on the processing

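No paired analysis was possible because the replicate numbers only follow the order of the record. Of the counts and medians over the 32 genes, 432 stayed within 1.5 times or within the spread between libraries under an alternative and 20 did not. For single named genes 1395 values kept their side of the threshold, 67 lost it, 18 gained it and 11 changed sign. No alternative called any of the 32 in a deletion contrast. Between the control groups the count of 9 went to 0 with cDC1 and fibroblast scores as covariates (0.00623% of all genes) and to 4 in the deleted libraries (8.58%). It went up to 12 with limma voom (25.7% of all genes). It was 10 with DESeq2 (19.8%), with the cDC1 score alone as covariate (16.1%) and with a filter of 5 CPM in 4 libraries (20.1%). With the other 4 scores in the fit, 0 slopes were called on the cDC1 and on the mature score (0% of all genes), with medians of -0.26 and 0.56, and these slopes changed sign: on the cDC1 score Srebf2 (-0.32), Abcg1 (-0.04) and Nr1h2 (-0.45), on the mature score Pmvk (-0.69) and Scap (-0.35), on the fibroblast score Pmvk (0.09) and Abcg1 (0.11). Within the Irf1 set alone 0 slopes were called on either score (0.311% and 0.501% of all genes), and Nr1h2 had slopes of -0.07 (cDC1) and -0.14 (mature). Without group terms, so with the difference between the sets in the slope, 19 slopes were called on the fibroblast score (29.1% of all genes) and 2 on the cell cycle score (8.13%). Leaving out 1 library gave 4 to 10 calls between the control groups, where 4.7% to 14.5% of all genes were called. Between the deleted groups it gave 1 to 5 (0.659% to 9.42% of all genes). It gave 1 to 4 calls on the cDC1 score (2.53% to 8.38%) and 0 to 5 on the mature score (2.59% to 11.6%). On the macrophage score it gave 0 to 1 (0.199% to 0.492%). The fold change of Abcg1 ran from -1.02 to 0.02 for the Ikbkb deletion and the difference between deletions from -0.01 to 1.02, both crossing 0 without Ikbkb control replicate 3. The median over the 32 genes ran from -0.01 (without Ikbkb-deleted replicate 1) to 0.27 for the Ikbkb deletion and from 0.19 to 0.51 for the Irf1 deletion. Between the control groups limma voom moved the median of all genes to 0.12 and leaving out Ikbkb control replicate 3 moved it to 0.11, with medians of -0.50 and -0.54 for the 32. The causes were not tested.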
